A study of Homo sapiens with 8 samples.

Results

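Voltage-gated potassium channels other than those of the KCNQ family were examined in HEK293T cells with and without KCNQ3. The group holds 40 of the 58592 genes to which the measured transcripts could be assigned. It was chosen by gene name and by no rule on measured values, but with earlier results of these data known. It comprises 8 pore subunits of the Kv1 (KCNA) subfamily, 7 pore subunits of Kv2 to Kv4 (KCNB, KCNC, KCND), 10 electrically silent subunits (KCNF, KCNG, KCNS, KCNV), 8 pore subunits of the ether-a-go-go type (KCNH), 3 cytosolic beta subunits (KCNAB) and 4 KChIP subunits (KCNIP).

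RNA was sequenced from 8 samples of HEK293T (clone 293T/17). This line comes from human embryonic kidney, expresses the large T antigen of SV40 and takes up plasmids easily. The 4 control libraries came from cells described as normal. The 4 overexpression libraries came from cells transfected with a plasmid that encodes tagged human KCNQ3, a subunit of the neuronal M-current channel. All were harvested 48 hours after transfection, and no sample differs from the others in any other stated respect. The transfection text stands on every sample alike, so what the controls received, reagent alone or an empty plasmid, is unknown here. The series describes the samples as biological replicates but does not say that cultures were started separately, so the p-values rest on a spread between samples that may be technical.

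A voltage-gated potassium channel is a tetramer of pore subunits that opens when the membrane is depolarised and lets potassium leave the cell. Subunits of one subfamily assemble with each other, silent subunits make no channel alone and join Kv2 subunits, and KCNH subunits assemble among themselves. Beta subunits bind the cytosolic side of Kv1 channels and KChIPs bind Kv4 channels, changing their gating and their delivery to the membrane. HEK293 cells are a common host for recording cloned channels because their own voltage-gated potassium current is small.

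Total estimated counts ran from 24020097 to 30734915 per library, and mitochondrial genes took 3.94% to 5.77% of them. KCNQ3 itself, which checks the labels, had 0 to 5 counts in control libraries and 15283 to 19709 in overexpression libraries, or 0.0996 ± 0.080 against 684 ± 88.0 CPM (counts per 1000000 of a library with TMM scaling, mean ± SD, n = 4 per group). Its log2 fold change was 12.63 (SE 0.25, adjusted p = 6.46e-07 by edgeR's quasi-likelihood test, exact two-sided permutation p = 0.0286, the smallest that 70 assignments of the labels can give). The 8 genes fixed as markers of the line had counts (PAX8 only in overexpression libraries, at under 0.1 TPM on average), with a summed level of 743 to 951 TPM in controls and 713 to 828 TPM in overexpression libraries. TPM (transcript level per 1000000 transcripts) is scaled by transcript length and can be compared between genes. Of 6 blood cell markers 3 were at 0 in every library, among them PTPRC and HBB, and of 6 fibroblast markers 2 were at 0, COL1A2 and DCN. Blood markers summed to 1.51 to 2.77 TPM in controls and 1.67 to 2.61 TPM in overexpression libraries, fibroblast markers to 5.84 to 7.68 TPM and 4.22 to 6.65 TPM. The 6 markers of mature neurons summed to 14.7 to 19.3 TPM in controls and 12.3 to 15.4 TPM with overexpression, and 1 of them passed the test: SNAP25, a synaptic fusion protein, fell by 1.46 on the log2 scale, with adjusted p = 0.0442 (edgeR's quasi-likelihood test), from 12 to 22 counts per control to 5 or 6. The 4 muscle markers summed to 0.505 to 2.38 TPM in controls and 2.20 to 2.53 TPM with overexpression. Among them TTN had a log2 fold change of 0.31 without overlap between groups and with adjusted p = 0.0586 in the same test. The part of other cell types in the values below was not tested. In bulk RNA, fewer cells that express a gene and less of its RNA per cell cannot be told apart.

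Control cells held RNA of all 6 subfamilies, most of it from a few genes. A gene was taken as detected when it had at least 1 estimated count in each of the 4 libraries of a group and a mean of at least 0.1 TPM. In controls 19 of 40 members were detected, 14 had traces and 7 had no count. In overexpression libraries 17 were detected. The members just above the limit in controls were KCND3 (0.148 TPM) and KCNF1 (0.155 TPM), and those just below it were KCND2 (0.083 TPM) and KCNH1 (0.065 TPM). Levels were low: 10 of the 40 reached 1 TPM on average in controls, and all 40 summed to 45.9 TPM in controls and 42.4 TPM in overexpression libraries.

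KCNG1, a silent subunit, was the most abundant member, at 16.8 to 22.4 TPM in the 4 controls. Every control value of KCNG1 lay above every value of KCNC4, the next in order, at 3.62 to 7.09 TPM. KCNC4 in turn lay above KCNH2 (2.13 to 2.84 TPM), KCNC1 (1.97 to 2.63 TPM), KCNB2 (1.82 to 2.37 TPM), KCNG3 (1.74 to 2.13 TPM) and KCNH3 (1.68 to 2.16 TPM). Neighbours among those 5 genes did not differ beyond their spread, since the range of each overlaps that of the next. KCNAB3 followed at 1.00 to 1.21 TPM. The beta subunit KCNAB2 (0.153 to 5.21 TPM) and the KChIP KCNIP3 (0.949 to 3.13 TPM) varied too much between control libraries to be placed in the order.

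**Figure D1:**
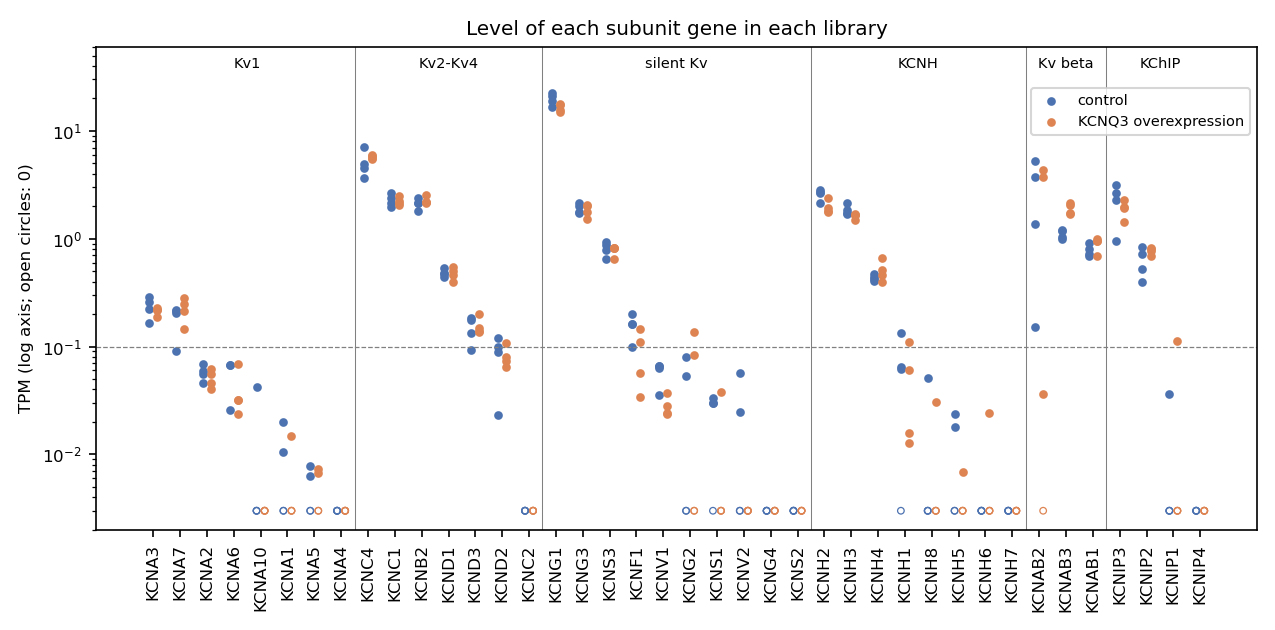
Level of each of the 40 subunit genes in TPM (log axis) in each library, by subfamily, with controls in blue, overexpression in orange, values of 0 as open circles at the bottom and the detection limit of 0.1 TPM as a dashed line. KCNG1 stands highest in both groups, and most Kv1 and KCNH genes lie near or below the limit.

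With KCNQ3 overexpressed, no member passed the test across all genes. Of the 40 members 18 had enough counts to be tested with edgeR's quasi-likelihood test (4 libraries against 4, Benjamini-Hochberg adjustment over 19280 genes, threshold 0.05). The test called 0 of these 18, while it called 58 of all genes, or 0.301%. DESeq2 and limma, run as other tools, also called 0 members. At an unadjusted p under 0.05 there were 3 members (16.7%), KCNAB3 with a higher level and KCNH2 and KCNG1 with lower ones, beside 19.4% of all genes tested. The groups did not overlap for 1 member, KCNAB3 (5.56%), beside 11.6% of all genes. Both shares are near or below those over all genes.

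The size of the estimates was small. The estimate was above 0 in 11 tested members and below 0 in 7, with a median log2 fold change of 0.09 beside 0.01 over all genes tested. For 16 of the 18 the 95% interval lay within a 2-fold change in either direction. The exceptions were KCNAB2 and KCNIP3, whose replicates were spread widely. The median standard error was 0.151 among the tested members and 0.0778 over all genes, so these genes were measured less precisely than the typical gene.

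**Figure D2:**
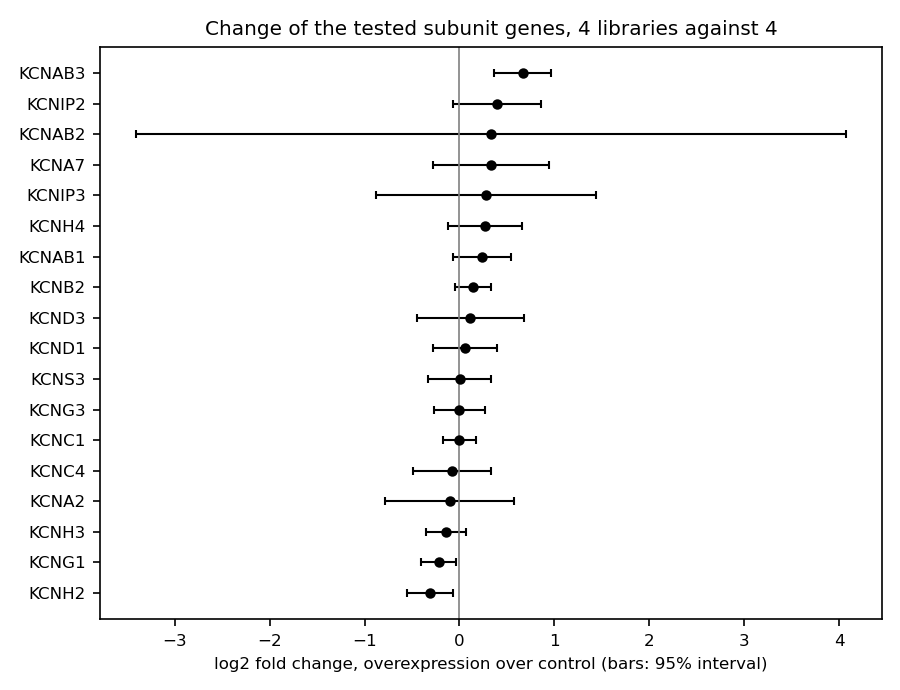
Estimated log2 fold change (overexpression over control) of the 18 tested subunit genes, with 95% intervals from edgeR's quasi-likelihood test, 4 libraries per group. Intervals of KCNAB3, KCNG1 and KCNH2 leave out 0 before adjustment, and that of KCNAB2 spans -3.41 to 4.08.

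Kv1 pore subunits were almost silent in this line. These are the Shaker-type subunits. KCNA1, KCNA2 and KCNA6 are known from axons, KCNA3 from T lymphocytes, and KCNA4 and KCNA5 from heart and brain. KCNA7 is known from muscle and KCNA10 from the inner ear. Summed over all 8 genes they reached 0.534 TPM in controls and 0.533 TPM in overexpression libraries. Only KCNA3 (0.233 and 0.213 TPM) and KCNA7 (0.181 and 0.223 TPM) were detected, and KCNA4 had no count in any library. Its 0 counts over the 4 libraries of a group allow a level of up to 0.028 CPM in controls and 0.029 CPM in overexpression libraries (3 counts, counting error only).

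KCNA7 had 17, 7, 14 and 15 counts in controls 1 to 4 and 20, 17, 17 and 10 with overexpression. The ranges overlap, and the log2 fold change was 0.33 (95% interval -0.28 to 0.94). KCNA3 had 7 to 12 counts in controls and 8 or 9 with overexpression, too few for the test. KCNA2, a trace by its level, was tested and gave -0.10 (95% interval -0.78 to 0.57). The other Kv1 genes with counts, KCNA1, KCNA5, KCNA6 and KCNA10, had 6 counts or fewer in each library, and KCNA10 had 2 counts in 1 control library alone.

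Of the Kv1 genes, 6 lie in 2 genomic clusters. On chromosome 1, KCNA10, KCNA2 and KCNA3 lie within chr1:110517217-110675033 (GRCh38), and KCNC4, the second most abundant member, lies nearby at chr1:110211343-110283100. On chromosome 12, KCNA6, KCNA1 and KCNA5 lie within chr12:4809176-5046788. The 3 genes of the chromosome 12 cluster were traces, and of the chromosome 1 cluster only KCNA3 was detected.

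Among subunits that can form channels alone, those of Kv2 to Kv4 had the highest summed level. KCNB2 encodes Kv2.2, a slow delayed rectifier. KCNC1, KCNC2 and KCNC4 encode Kv3 subunits, which open at strong depolarisation and close fast, and KCND1, KCND2 and KCND3 encode Kv4 subunits of the A-type current. Their summed level was 10.2 TPM in controls (8.36 to 12.6) and 10.9 TPM with overexpression (10.4 to 11.8). KCNC2 had no count in any library, and KCND2 was a trace.

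KCNC1 (ENSG00000129159.7, chr11:17734774-17856804) had nearly equal means in both groups, 10.8 CPM in each. It stood at 11.9, 10.2, 9.57 and 11.5 CPM in controls 1 to 4 and at 11.1, 10.9, 10.3 and 10.8 CPM with overexpression. All 4 overexpression values lie inside the range of the controls. The log2 fold change was -0.00 (SE 0.08, 95% interval -0.18 to 0.17). One isoform, KCNC1-202, held 97.5% of its counts. The gene overlaps SERGEF on the opposite strand, which had 6682 counts over the 8 libraries, and the labels do not say whether counting used strand.

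KCNC4 (ENSG00000116396.14) encodes Kv3.4, which inactivates quickly. It had 521, 347, 369 and 426 counts in controls 1 to 4 and 474, 237, 417 and 384 with overexpression. Overexpression library 2 was the lowest of the 8 at 9.80 CPM, while in TPM it stood at 5.83, above 3 of the 4 controls (3.62, 4.50 and 4.97). The long coding isoform KCNC4-201 (18750 bases) had 179 to 299 counts in the controls and in the other overexpression libraries 181 to 279, but 0 in overexpression library 2. In that library 137 counts lay on KCNC4-206, a shorter isoform annotated as a target of nonsense-mediated decay, and 82 on KCNC4-207, annotated as a retained intron. Both also had counts in other libraries. The log2 fold change of the gene was -0.08 (95% interval -0.49 to 0.33).

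KCNB2 stood at 4.77, 5.41, 4.89 and 4.41 CPM in controls and at 5.70, 5.34, 5.11 and 5.31 CPM with overexpression. The groups overlap, and the log2 fold change was 0.14 (95% interval -0.05 to 0.33). A single isoform carried all its counts. KCND1, with 29 to 42 counts per library, gave 0.06 (95% interval -0.28 to 0.40), and KCND3, with 11 to 25, gave 0.11 (95% interval -0.45 to 0.68). KCND2, with 2 to 12 counts per library, was not tested, and its ratio of summed counts was 1.01 (95% interval 0.609 to 1.69, counting error only).

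The silent subunits held about as much RNA as all other subfamilies together, most of it from 1 gene. Their summed level was 22.8 TPM in controls (19.7 to 25.6) and 19.2 TPM with overexpression (18.1 to 20.3), and KCNG1 made up 19.8 and 16.4 TPM of it. KCNG1 encodes Kv6.1, which forms channels only with Kv2 subunits. Among its possible partners in the group, KCNB2 stood at 2.12 TPM in controls. KCNG4 and KCNS2 had no count in any library, and KCNG2, KCNS1, KCNV1 and KCNV2, the last a subunit of photoreceptor channels, were traces in controls.

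KCNG1 (ENSG00000026559.13, chr20:51003656-51023129) was lower with overexpression by an amount that did not pass the adjusted test. It stood at 23.8, 19.3, 22.0 and 18.3 CPM in controls 1 to 4 and at 17.6, 18.1, 19.0 and 16.9 CPM in overexpression libraries 1 to 4. The groups overlap, as overexpression library 3 lies above control 4. The means were 20.8 ± 2.53 and 17.9 ± 0.878 CPM, with a log2 fold change of -0.22 (SE 0.08, unadjusted p = 0.0235, adjusted p = 0.191 by edgeR's quasi-likelihood test). The leading isoform KCNG1-201 had 298 to 548 counts in controls and 268 to 327 with overexpression.

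KCNG3 (ENSG00000171126.7, chr2:42442017-42494097) encodes Kv6.3, and its 2 isoforms differ in coding sequence by a stretch of 33 bases at the end of the first exon. They differ at both ends of the transcript as well. The sequences of both junctions, 5′ to 3′ on the strand of the gene, are shown because the counts of the gene moved between these isoforms from library to library. They come from the GENCODE release 29 transcripts (GRCh38). Capitals mark the stretch that KCNG3-202 lacks, chr2:42492837-42492869 on the minus strand, with 15 bases on each side.
KCNG3-201: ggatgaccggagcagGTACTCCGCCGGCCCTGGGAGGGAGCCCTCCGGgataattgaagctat
KCNG3-202: ggatgaccggagcaggataattgaagctat

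KCNG3-201 received 31, 104, 116 and 0 counts in controls 1 to 4 and 91, 0, 131 and 75 with overexpression. KCNG3-202 received 104, 0, 0 and 105 in controls and 0, 103, 0 and 40 with overexpression. In 6 of the 8 libraries 1 of the isoforms had all the counts, and both were found as the only one in each group. The sum over both isoforms was steadier, at 4.38, 3.94, 4.85 and 4.18 CPM in controls and 3.41, 4.26, 4.89 and 4.77 CPM with overexpression. The gene's log2 fold change was -0.00 (SE 0.12, 95% interval -0.27 to 0.27).

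KCNS3, which encodes Kv9.3, showed the same kind of division. KCNS3-202 had 0, 25, 0 and 31 counts in controls and 32, 0, 34 and 31 with overexpression, and KCNS3-201 had 38, 0, 32 and 0 and then 0, 24, 0 and 0. Never did both have counts in the same library. As a gene, KCNS3 had 24 to 38 counts per library and a log2 fold change of 0.00 (95% interval -0.33 to 0.33). Of the silent genes too low to test, KCNF1 had 25 counts over the controls and 14 over the overexpression libraries (ratio 0.585, 95% interval 0.281 to 1.17), and KCNV1 had 28 and 14 (ratio 0.523, 95% interval 0.254 to 1.03). KCNV1 had 5 to 8 counts in each control and 3 or 4 in each overexpression library. Both intervals cover counting error only and include 1.

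**Figure D3:**
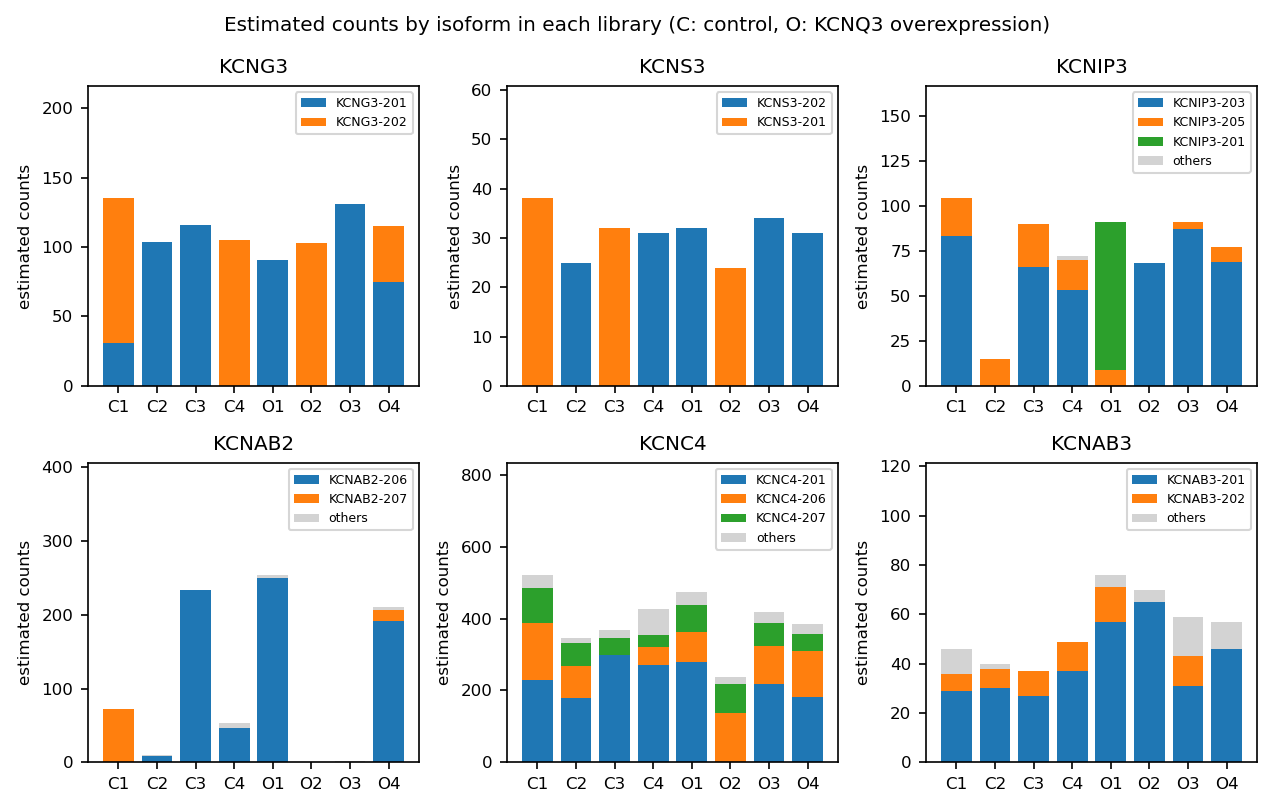
Estimated counts per library (C1 to C4 controls, O1 to O4 overexpression) for 6 subunit genes, stacked by isoform, with the remaining isoforms in grey. In KCNG3, KCNS3, KCNIP3 and KCNAB2 whole libraries go to a different isoform or to none, in both groups, while KCNAB3-201 leads KCNAB3 in all 8.

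KCNH subunits were represented by 1 member of the ERG branch and 2 of the ELK branch. KCNH2 encodes ERG1, the pore subunit of the rapid delayed rectifier that ends the heart's action potential, with KCNH6 and KCNH7 as its relatives. KCNH3, KCNH4 and KCNH8 encode ELK subunits, and KCNH1 and KCNH5 the ether-a-go-go subunits. The subfamily summed to 4.96 TPM in controls (4.31 to 5.56) and 4.17 TPM with overexpression (3.81 to 4.65). KCNH7 had no count in any library, and KCNH6 had 2 counts, both in overexpression library 4. KCNH1, KCNH5 and KCNH8 were traces, each with 0 in at least 1 control library.

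KCNH2 (ENSG00000055118.14, chr7:150944961-150978315, minus strand) was lower with overexpression, again without passing the adjusted test. It stood at 6.65, 6.32, 6.52 and 5.49 CPM in controls 1 to 4 and at 4.73, 4.39, 6.01 and 5.02 CPM with overexpression. Overexpression library 3 lies among the controls, and the other overexpression libraries lie below all of them. The means were 6.24 ± 0.522 and 5.03 ± 0.697 CPM, with a log2 fold change of -0.31 (SE 0.11, 95% interval -0.55 to -0.07, unadjusted p = 0.0164, adjusted p = 0.165 by edgeR's quasi-likelihood test). Isoforms that begin at the upstream start had 1161 of its counts over the 8 libraries, and those from the internal start had 19. Of the 19, 7 lay on the coding isoform KCNH2-202 and 12 on KCNH2-205, annotated as a retained intron. Of the upstream counts, 839 lay on the coding isoform KCNH2-201 and 322 on KCNH2-206, also annotated as a retained intron. KCNH2-201 had 143, 114, 98 and 96 counts in controls 1 to 4 and 101, 57, 109 and 121 with overexpression (log2 -0.18). KCNH2-206 had 60, 47, 58 and 39 and then 25, 41, 52 and 0 (log2 -0.77). Neither isoform passed the test over transcripts.

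The upstream start of KCNH2 held nearly all of its counts in both groups. By library it had 203, 161, 156 and 135 counts in controls and 126, 98, 161 and 121 with overexpression, against 2, 6, 0 and 3 and then 0, 8, 0 and 0 from the internal start. RefSeq lists 5 starts for the gene. The 250 bases before the upstream RefSeq start, chr7:150978322-150978571 on the minus strand (GRCh38.p14), are shown because isoforms from this start held nearly all counts. Capitals mark the GC box (GGGCGG, or CCGCCC on the other strand) and the CCAAT box (CCAAT, or ATTGG on the other strand).
KCNH2 upstream: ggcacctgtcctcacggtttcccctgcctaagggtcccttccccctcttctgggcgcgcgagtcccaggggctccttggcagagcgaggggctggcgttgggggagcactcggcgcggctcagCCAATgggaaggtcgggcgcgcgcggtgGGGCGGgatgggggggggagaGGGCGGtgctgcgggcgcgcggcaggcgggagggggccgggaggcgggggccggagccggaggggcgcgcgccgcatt

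The window holds 2 GC boxes and 1 CCAAT box, and 77.2% of its bases are G or C. The window before the internal start holds 3 GC boxes and no CCAAT box, with 74.4% G or C. That RefSeq start lies 102 bases downstream of the GENCODE start of KCNH2-202, so part of this window lies within that isoform. For the upstream start the annotations differ by 6 bases. Over all 35116 RefSeq windows of 250 bases, 42.6% hold a GC box and 32.0% a CCAAT box. Among the members, 31 of 40 had a RefSeq promoter entry. Of the detected ones 11 of 15 held a GC box at a start and 9 of 15 a CCAAT box, and of those with traces or no counts 10 of 16 and 6 of 16. Over all 27305 genes 46.2% and 37.0% held them. A match is a description of the sequence only.

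KCNH3 (ENSG00000135519.7, chr12:49539157-49558308) stood at 4.96, 4.13, 4.47 and 4.37 CPM in controls and at 3.60, 4.18, 4.25 and 4.27 CPM with overexpression. Its log2 fold change was -0.14 (95% interval -0.35 to 0.07), and the groups overlap. It shares its locus with MCRS1 on the opposite strand, which had 16920 counts over the 8 libraries, far more than KCNH3. KCNH4 had 24 to 40 counts per library and a log2 fold change of 0.27 (95% interval -0.12 to 0.66).

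Among the 18 tested members, the beta subunits held the largest log2 fold change, that of KCNAB3, and the widest interval, that of KCNAB2. KCNAB1, KCNAB2 and KCNAB3 encode the Kv beta proteins, which resemble aldo-keto reductases and dock on Kv1 channels. Their RNA was present although Kv1 RNA was nearly lacking: the 3 genes summed to 4.51 TPM in controls (2.11 to 7.09) and 4.84 TPM with overexpression (2.70 to 7.04). The subfamily's wide range came mostly from KCNAB2.

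KCNAB3 (ENSG00000170049.9, chr17:7921859-7929803) had 46, 40, 37 and 49 counts in controls 1 to 4 and 76, 70, 59 and 57 with overexpression. That is 1.49, 1.51, 1.55 and 1.95 CPM against 2.85, 2.90, 2.20 and 2.36 CPM. Every overexpression library lay above every control. The means were 1.63 ± 0.217 and 2.58 ± 0.348 CPM, a 1.59-fold difference (log2 0.67, SE 0.14, 95% interval 0.37 to 0.96). The unadjusted p was 5.07e-04 and the adjusted p 0.0628 by edgeR's quasi-likelihood test, above the threshold. Over 16 alternatives the log2 fold change was 0.47 to 0.76 and the adjusted p 0.0415 to 0.214. It passed in 1 of them, without control 4 (log2 0.76, adjusted p 0.0415).

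The isoform KCNAB3-201 held 74.2% of the gene's counts, with 29, 30, 27 and 37 in controls and 57, 65, 31 and 46 with overexpression. Overexpression library 3 thus lay within the controls for this isoform, and part of the library's counts went to KCNAB3-202 and KCNAB3-203, which are annotated as targets of nonsense-mediated decay. Its log2 fold change was 0.73 (unadjusted p = 0.0380, adjusted p = 0.894 by edgeR's quasi-likelihood test over transcripts). KCNAB3 lies beside TRAPPC1, and a transcript that reads through both (AC104581.2) had 0 counts. TRAPPC1 had a log2 fold change of 0.15 with an adjusted p of 0.162 by the same test over genes.

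KCNAB2 (ENSG00000069424.14, chr1:5991466-6101193) could not be read in either direction. It had 72, 10, 234 and 54 counts in controls and 254, 0, 2 and 210 with overexpression. Both groups hold libraries at 10 counts or fewer and libraries of 210 or more, and the log2 fold change was 0.33 with an interval from -3.41 to 4.08. The long isoform KCNAB2-206 carried 87.2% of the counts. In control 1 all counts lay on the short isoform KCNAB2-207 (822 bases), which gave that library the highest TPM, 5.21, from only 72 counts. NPHP4, which overlaps KCNAB2 on the opposite strand, had 20.9 ± 1.15 CPM in controls and 20.9 ± 0.911 CPM with overexpression. KCNAB1, with 46 to 72 counts per library, all on 1 isoform, had a log2 fold change of 0.24 (95% interval -0.07 to 0.54).

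**Figure D4:**
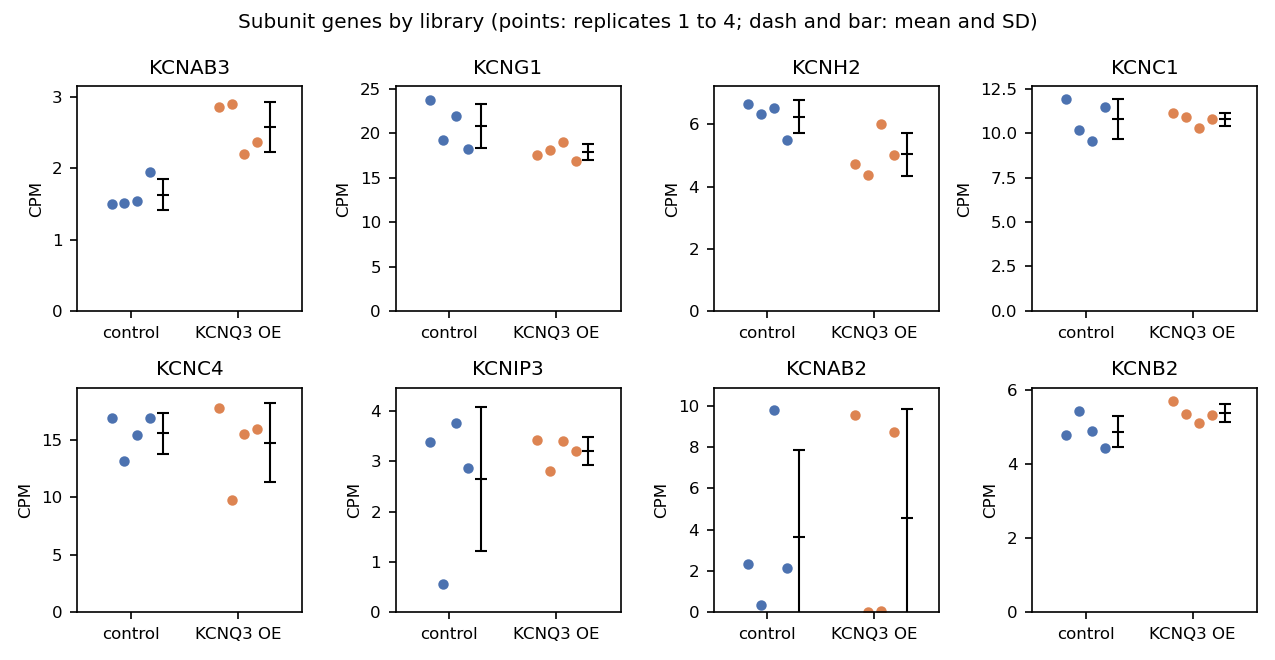
CPM of 8 subunit genes in each library (points, replicates 1 to 4 from left to right), with the mean and SD of 4 libraries beside them and each axis starting at 0, where the SD bars of KCNAB2 end. The groups are apart in KCNAB3, overlap in KCNG1 and KCNH2, and coincide in KCNC1, while KCNAB2 runs from 0 to 9.78.

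KChIPs are calcium-binding proteins that join Kv4 channels, and KCNIP3, also called calsenilin or DREAM, is known as a transcription repressor as well. The 4 genes summed to 2.89 TPM in controls (1.79 to 3.53) and 2.71 TPM with overexpression (2.23 to 3.06). KCNIP4 had no count in any library, and KCNIP1 had 2 counts in 1 control and 5 in 1 overexpression library.

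KCNIP3 (ENSG00000115041.12, chr2:95297304-95386083) had 104, 15, 90 and 72 counts in controls and 91, 68, 91 and 77 with overexpression. Control 2 was low and the other 7 libraries lay close together. The log2 fold change was 0.28 (95% interval -0.88 to 1.44). The isoform KCNIP3-203 held 70.1% of the counts and is annotated as a processed transcript, a type without a coding sequence. It had 53 to 83 counts in 3 controls and none in control 2. It also had none in overexpression library 1, where 82 counts lay on KCNIP3-201 instead. The short coding isoform KCNIP3-205 had 21, 15, 24 and 17 counts in controls and 9, 0, 4 and 8 with overexpression. Its groups do not overlap, but its log2 fold change of -1.83 did not pass (unadjusted p = 0.0468, adjusted p = 0.894 in edgeR's quasi-likelihood test over transcripts). KCNIP2 had 16 to 30 counts in controls and 27 to 36 with overexpression, with a log2 fold change of 0.40 (95% interval -0.06 to 0.86). KCNIP2-205, also annotated as a processed transcript, held 94.1% of its counts. The gene overlaps KCNIP2-AS1 on the opposite strand, which had 148 counts over the 8 libraries.

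Isoforms of the 40 genes were tested as transcripts too. The files list 221 of them, 82 had counts and 30 were tested among 47129 transcripts. The test called 0 of the 30, and over all transcripts it called 6, or 0.0127%. At an unadjusted p under 0.05 there were 3, KCNG1-203, KCNAB3-201 and KCNIP3-205, beside 5.58% of all transcripts tested. Of 18 members with at least 80 counts in all, 12 had the same leading isoform in every library and 6 did not: KCNAB2, KCNC4, KCNG3, KCNH4, KCNIP3 and KCNS3.

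**Figure D5:**
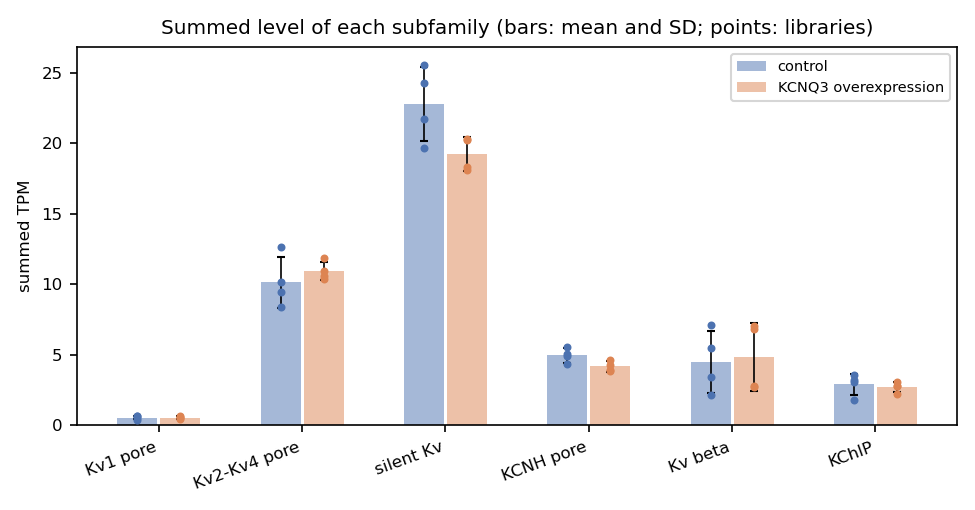
Summed TPM of each subfamily (bars and whiskers: mean and SD of 4 libraries, points: libraries, axis from 0). Silent subunits are highest in both groups at 22.8 and 19.2 TPM, and Kv1 subunits lowest at 0.534 and 0.533 TPM.

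The state of 5 members differed between the groups, 4 of them on few counts. KCNF1 was detected in controls and a trace with overexpression (25 and 14 counts), as was KCNAB2, with 0 counts in 1 overexpression library. KCNA10 (2 and 0 counts) and KCNV2 (4 and 0) had traces in controls only, and KCNH6 (0 and 2) with overexpression only. The interval of the ratio of summed counts was 0 to 5.56 for KCNA10 and 0 to 1.58 for KCNV2, for counting error only, and both include 1.

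Proteins that anchor, fold or modify these channels were examined as a second list of 25 genes. It holds cell-surface auxiliary proteins (such as DPP6, DPP10, AMIGO1 and LGI1), scaffolds (such as DLG1, DLG4, CTTN and ACTN2) and chaperones of channel folding (such as HSPA8, HSP90AA1, CANX and STUB1). Of the 25, 22 were tested and 0 were called by edgeR's quasi-likelihood test, and DESeq2 called 1, ACTN2. At an unadjusted p under 0.05, 4 of the 22 were higher and 2 of the 22 lower, beside 9.92% and 9.46% of all genes. The groups did not overlap for 3 of the 22, KCNRG, ACTN2 and STUB1, beside 11.6% of all genes. Their median log2 fold change was 0.03. DPP6, the Kv4 auxiliary subunit, had no count, DPP10 had 1, and CNTN2 had 9.

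KCNRG, a soluble protein with a Kv-type assembly domain known to lower Kv currents, had the smallest p of the list. It had 7, 8, 9 and 7 counts in controls 1 to 4 and 14, 19, 20 and 18 with overexpression. The groups do not overlap, and the level was 0.296 ± 0.062 and 0.701 ± 0.119 CPM. Its log2 fold change was 1.24 (SE 0.23), and its adjusted p was 0.0582 (edgeR's quasi-likelihood test). Among the alternatives run, it did not pass in 13 and passed in 1. That 1 left out overexpression library 1, its lowest with overexpression, and gave 1.35 with an adjusted p of 0.0313 by the same test. In that setting 378 of all genes passed. KCNRG overlaps TRIM13 on the same strand, which had 4782 counts and a log2 fold change of 0.08, and DLEU2 on the opposite strand, with 0.24. How much of its count came from shared sequence was not tested.

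ACTN2, an actinin that ties channels to the cytoskeleton, had 276, 220, 217 and 206 counts in controls and 183, 136, 176 and 172 with overexpression. All overexpression values lay below all controls, at 6.55 ± 0.656 CPM against 8.63 ± 0.439 CPM. The estimate was -0.40 on the log2 scale (SE 0.09), and the adjusted p was 0.0655 in edgeR's quasi-likelihood test and 0.0224 in DESeq2. The most abundant partners were the chaperones HSPA8, at 1214 ± 108 and 1414 ± 254 CPM (log2 0.22, adjusted p 0.403 by edgeR's quasi-likelihood test), and HSP90AA1, at 1235 ± 52.6 and 1320.0 ± 90.9 CPM (log2 0.10, adjusted p 0.396 by the same test). Neither passed it.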

How the data were processed

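RNA-seq of 8 HEK293T libraries, 4 per group, was used. Per the submitters' processing notes, cutadapt 2.8, FastQC 0.11.5, HISAT2 2.1.0, SAMtools 1.9, StringTie 2.1.0 and the build GRCh38.p13 were used. Annotation release and strand setting are not stated there. Deposited by the authors were TPM and whole-number estimated counts for each transcript. Of 227751 transcripts 205804 matched GENCODE 29 and were summed per gene. A member's counts on the 21947 others are not included.

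The edgeR 4.0.16 quasi-likelihood test (robust, TMM scaling, filterByExpr with minimum count 10 and total 15, Benjamini-Hochberg threshold 0.05, R 4.3.3) was run over all genes and over all transcripts, with limma 3.58.1 and DESeq2 1.42.0 as alternatives. Standard errors are those implied by the p-value. On simulated data the gene test recovered 26%, 60%, 74% and 96% of genes changed by 1.25, 1.5, 2 and 4 times, with 11 of 139 calls false. The changed genes were drawn from all genes tested, whose median standard error was 0.0778, beside 0.151 for the tested members. Recovery among the members alone was not simulated. A test of isoform usage gave 166 false calls among 217 on simulated data and was not used. Chi-square divided by its degrees of freedom was 9.72 to 18.6 over the 12 replicate pairs, so libraries of a group differed by more than counting error. That does not show that cultures were started separately.

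The members and the lists were chosen with earlier results of these data known. Values per library are given for members with at least 1 TPM in a group or an unadjusted p under 0.05, for isoforms with at least 10% of their counts where these bear on a result, and for the 2 most abundant partners and the 2 with the smallest p. Others were named after their values were seen.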

Additional observations from a re-analysis of the deposited data

Results flagged for a closer look

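In 4 cases a value lay apart from the other 3 libraries of its group by more than Dixon's 95% limit for 4 values. KCNAB3 stood at 1.95 CPM in control 4, with the other controls at 1.49 to 1.55 CPM. KCNA7 stood at 0.265 CPM in control 2, with the others at 0.551 to 0.597 CPM. KCND3 stood at 0.993 CPM in overexpression library 2, with the others at 0.663 to 0.675 CPM. KCNH3 stood at 3.60 CPM in overexpression library 1, with the others at 4.18 to 4.27 CPM. These are 4 of 36 groups examined, and chance flags about 1 in 20. They lie in 4 different libraries.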

How the results depend on the processing

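The count of all genes past the threshold moved most: 58 in the main test, 35 without a scaling factor, 738 with DESeq2, 9 with limma on log2(TPM + 0.1), 9 on log2(TPM + 1), and 8 (without overexpression library 2) to 378 (without overexpression library 1) leaving out single libraries. For the 40 subunit genes the count was 0 under every alternative run but 1, at 0 to 1 leaving out single libraries. That 1 was KCNAB3 without control 4. Partners past the threshold were 1 with DESeq2 and 0 to 1 leaving out single libraries. Subunit genes without overlap between groups were 2 with no filter and 1 to 3 leaving out single libraries (3 without control 2, control 4 or overexpression library 3). The share over all genes was not computed in these settings. With fewer libraries, groups separate by chance more often, so these counts are not a result about the subunit genes. With a limit of 1 TPM, 10 subunit genes were detected in controls.

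The replicate numbers did not pair the libraries: deviations of same-numbered libraries correlated at 0.01, -0.01, -0.05 and -0.02, and 0 of 8 libraries were closest to their own number. With the number as a replicate block, 86 genes passed and 0 subunit genes did.

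The isoform usage test and its alternatives were not run on these data, because it failed on simulated data. DESeq2 gave no separate count of genes without overlap. Depth limits genes with few counts, and the transcript test recovered 0% of simulated 2-fold changes and 22% of 4-fold ones.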
